A study of Homo sapiens with 4 samples.

Results

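Expression of 10 genes of the nuclear lamina and of high mobility group (HMG) chromatin proteins was followed by RNA-seq during osteoblast mineralization. The genes were taken by symbol from the deposited mRNA table and comprise 3 lamins (LMNA, LMNB1, LMNB2), 3 proteins of the inner nuclear membrane (LBR, TMPO, EMD), 2 HMG-box proteins (HMGB1, HMGB2) and 2 AT-hook proteins (HMGA1, HMGA2). All 10 are among the 19610 gene symbols of that table, with 48 of its 79798 transcripts, and all 10 passed the minimum of 1 FPKM in any library that 12859 genes reached. FPKM, fragments mapped per unit of transcript length and of sequencing depth, were summed over the transcripts of each gene.

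The cells were hFOB1.19, a clonal human fetal osteoblast line that carries a temperature-sensitive SV40 large T antigen, grows at a permissive temperature and differentiates once it is raised. By the labels and the study's culture methods, day 0 was the control at the permissive temperature, and days 3, 6 and 9 followed at the raised temperature under mineralization. There was 1 library per time point, so no value has a replicate error, no test between days was possible, and differences below compare libraries. Temperature and differentiation changed together after day 0 and cannot be told apart, nor can fewer cells of a kind and less RNA per cell.

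Lamins are intermediate filament proteins that line the inside of the nuclear envelope. B-type lamins stay attached to the membrane, whereas the A-type lamins of LMNA also occur in the nuclear interior, and LBR, TMPO and emerin link lamina and chromatin to the inner nuclear membrane. HMGB proteins bend DNA through their HMG boxes, and HMGA proteins bind the minor groove of AT-rich DNA through AT-hooks. Loss of lamin B1 and of HMGB2 and gain of HMGA proteins on chromatin are known from cells that stop dividing for good.

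Libraries of days 3, 6 and 9 resembled each other more than day 0. Across the 12859 genes, Pearson's r of log2(FPKM + 1) was 0.974 to 0.989 among days 3, 6 and 9 and 0.899 to 0.921 between day 0 and a later day. Deposited FPKM of all transcripts summed to 617857 on day 0 and to between 538072 and 569922 later. Of 9 osteoblast markers, 6 reached 1 FPKM, whereas SP7, BGLAP and IBSP stayed below 1 FPKM in every library. The summed level was 2024 FPKM on day 0 and 4332, 3721 and 3013 FPKM on days 3, 6 and 9. Almost all of it came from COL1A1, COL1A2 and SPARC. RUNX2 had 7.37 FPKM on day 0 and 18.2 to 26.2 later, and ALPL and SPP1 did not exceed 4.35 and 7.45 FPKM. Summed markers of endothelial cells were 0.123 to 0.528 FPKM, those of adipocytes 0.260 to 0.486, those of muscle 0.278 to 1.35 and those of blood cells 0.950 to 1.24, with CD3E and ADIPOQ listed at 0. Epithelial markers summed to 182 to 395 FPKM, almost all from the keratin gene KRT18, while EPCAM and CDH1 did not exceed 0.788 and 0.446 FPKM.

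Most lamina and HMG-box genes were highest on day 0 and lower on each later day, whereas the AT-hook genes took other courses. FPKM were highest on day 0 for 8 of the 10 genes (46% of all 12859 genes) and lower at each step from day 0 to day 9 for 7 of them (13% of all genes). The exceptions to a stepwise decrease were LMNB2, HMGA1 and HMGA2. Log2 ratios to day 0, taken after 1 was added to each FPKM, had medians over the 10 genes of -0.66, -0.77 and -0.93 for days 3, 6 and 9. Over all 12859 genes this median was -0.08, -0.08 and -0.09.

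**Figure D1:**
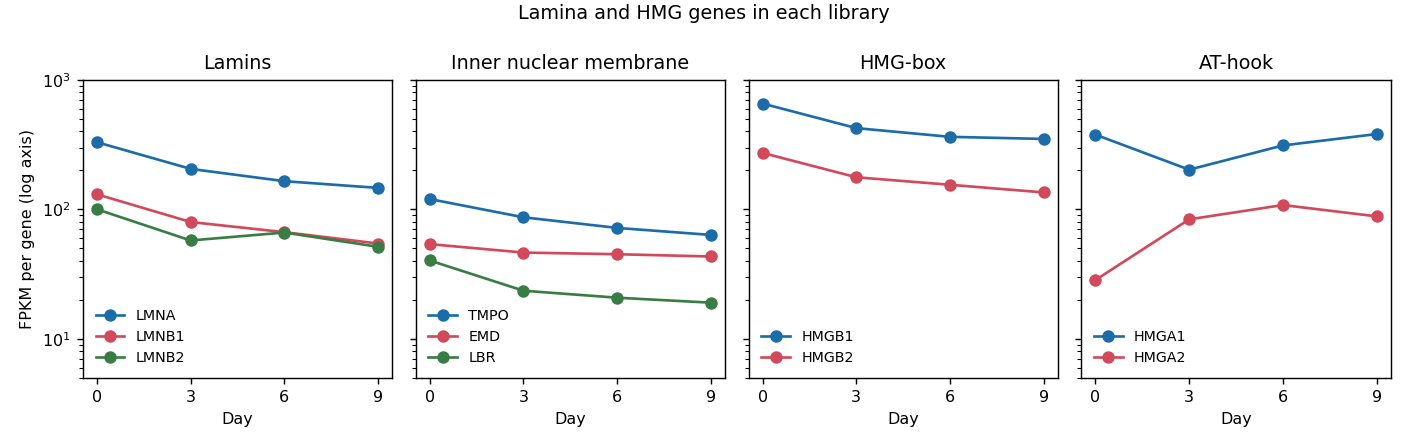
FPKM per gene (log axis) of the 10 genes on days 0, 3, 6 and 9, with 1 library per point and 1 panel per protein class. Lamin, membrane and HMG-box genes lie highest on day 0, HMGA1 dips to 202 FPKM on day 3, and HMGA2 lies above its day 0 level of 28.5 FPKM on every later day.

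A gene was taken as 2-fold higher or lower at a log2 ratio of at least 1 or at most -1. On day 3, 1 of the 10 genes was 2-fold higher (8.13% of all genes) and 0 were 2-fold lower (5.3%). On day 6, 1 was higher (9.01%) and 0 were lower (6.42%). On day 9, 1 was higher (9.6%) and 4 were lower (6.52%). The gene that was higher was HMGA2 on each day, and those lower on day 9 were LMNB1, LMNA, LBR and HMGB2. On all 3 later days, 1 of the 10 was 2-fold higher (5.93% of all genes) and 0 were 2-fold lower (3.45%). With a limit of 1.5-fold, 7 of the 10 were lower on day 3 (18.5% of all genes), 7 on day 6 (20.1%) and 7 on day 9 (20.4%). These were not the same genes throughout, as HMGA1 was among them on day 3 only and TMPO on days 6 and 9 only. LMNB2 was only just past this limit on day 6 (-0.59).

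These counts depended on the scale of the libraries. With FPKM rescaled by the median of ratios, the median over all genes moved from -0.08 to 0.04 on day 3, and 2 of the 10 genes instead of 4 were 2-fold lower on day 9, namely LMNB1 and LMNA. The numbers at least 1.5-fold lower on days 3, 6 and 9 were then 3, 6 and 7 (13.4%, 14.7% and 15.4% of all genes). Of the genes past the 2-fold limit, 72.2% were then higher on day 3, against 60.6% with FPKM as deposited, and with FPKM rescaled to the same sum this was 77.7%. By median of ratios the share was 70.4% on day 6 and 69.7% on day 9, against 58.4% and 59.6% as deposited. Under each of these scalings, 9 of the 10 genes lay below the median of all genes on days 3 and 6, and 8 on day 9.

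**Figure D2:**
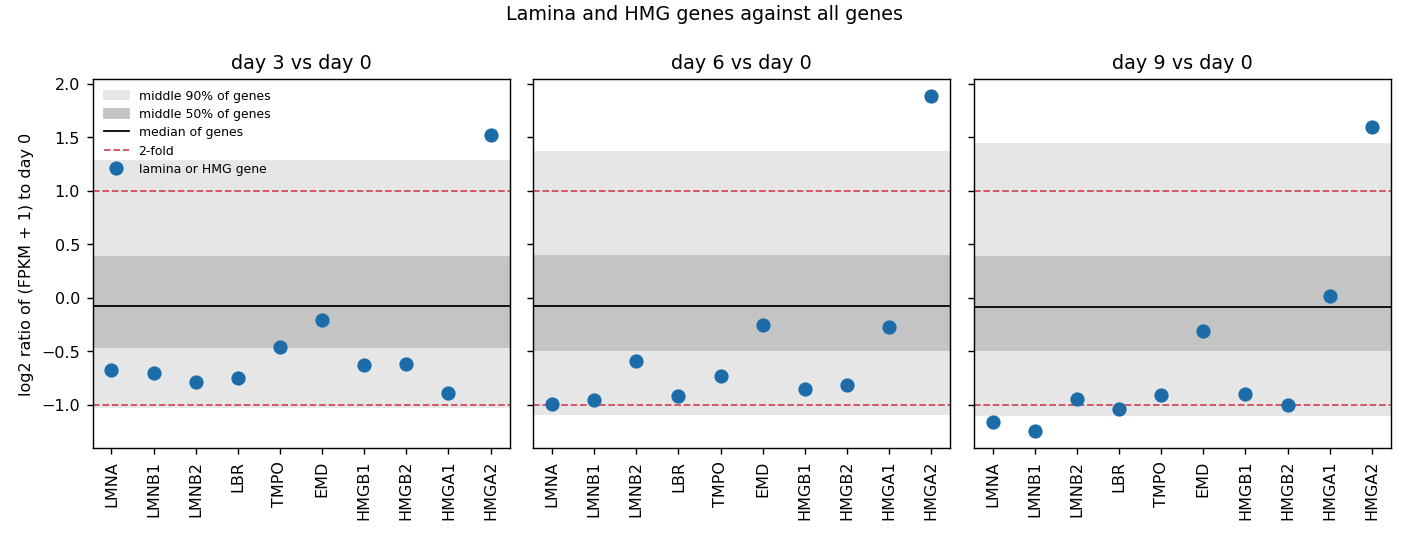
Log2 ratio of (FPKM + 1) to day 0 of the 10 genes (points) on days 3, 6 and 9, with the median (line) and the middle 50% and 90% (bands) of all 12859 genes and dashed lines at 2-fold. On day 9, LMNB1 (-1.25) and LMNA (-1.17) lie lowest and HMGA2 (1.60) lies highest.

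LMNB1, which encodes lamin B1, had 131, 79.8, 66.6 and 54.5 FPKM at days 0, 3, 6 and 9. Each library was lower than the one before, and the day 9 level was 41.7% of that on day 0. Its log2 ratio to day 0 was -0.70, -0.96 and -1.25, and on day 9 only 3.44% of all genes had a lower ratio. LMNB1 went on decreasing at the raised temperature, with a log2 ratio of -0.26 from day 3 to day 6 and -0.29 from day 6 to day 9. The middle 50% of all genes lay between -0.15 and 0.14 and between -0.12 and 0.13 in these steps.

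LMNA, which encodes lamins A and C by alternative splicing, had 329.8, 205, 165 and 146 FPKM at the 4 time points. It was the most abundant lamin in every library. Its log2 ratio to day 0 was -0.68, -0.995 and -1.17, so that it reached 44.4% of its day 0 level. On day 6 it lay just inside the 2-fold limit.

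LMNB2, which encodes lamin B2, had 100.2, 57.5, 66.2 and 51.4 FPKM in the same order. It was higher on day 6 than on day 3, and its log2 ratios to day 0 were -0.79, -0.59 and -0.95, none past the 2-fold limit. The FPKM of LMNB1 relative to LMNA was 0.396, 0.389, 0.404 and 0.372 across the time course, so these genes kept nearly the same ratio in all libraries. LMNB1 and LMNB2 were apart on days 0 and 3, with LMNB1 1.30 and 1.39 times as high, and close on days 6 and 9, at 1.01 and 1.06 times.

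Of 10452 genes with at least 5 FPKM in any library, ACBD6, PBLD and LMNB1 had the courses most like that of LMNA, in this order. The measure was the root mean square difference of the 3 log2 ratios to day 0, which was 0.0403 for ACBD6, 0.0450 for PBLD and 0.0527 for LMNB1. These ratios share the day 0 library and rest on 4 libraries.

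Promoters of LMNA and LMNB1, because LMNB1 was among the 3 genes closest to LMNA, and of TMPO, as an example of a window with more than 1 CCAAT box, are shown with motifs searched on both strands. RefSeq windows of 300 bases (GRCh38.p14), most of them upstream of the gene start, were found for 8 of the 10 genes and not for HMGB2 and HMGA2, with 15 windows in all. Capitals mark the CCAAT box (CCAAT, or ATTGG on the other strand) and, in LMNA, letters of an E2F site. The windows lie on the plus strand at chr1:156082323-156082622, chr5:126776886-126777185 and chr12:98515323-98515622.
LMNA: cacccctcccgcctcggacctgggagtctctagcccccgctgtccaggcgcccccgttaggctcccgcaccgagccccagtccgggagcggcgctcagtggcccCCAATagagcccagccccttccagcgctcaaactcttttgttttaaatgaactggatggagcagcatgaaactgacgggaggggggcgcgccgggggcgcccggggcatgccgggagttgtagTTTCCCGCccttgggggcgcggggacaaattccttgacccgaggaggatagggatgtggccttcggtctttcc
LMNB1: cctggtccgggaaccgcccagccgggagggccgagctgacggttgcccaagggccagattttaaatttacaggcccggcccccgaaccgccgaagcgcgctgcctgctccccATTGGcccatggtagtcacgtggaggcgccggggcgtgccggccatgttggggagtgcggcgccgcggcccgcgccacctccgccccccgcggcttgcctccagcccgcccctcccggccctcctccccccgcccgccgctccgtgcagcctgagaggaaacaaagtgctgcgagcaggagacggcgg
TMPO: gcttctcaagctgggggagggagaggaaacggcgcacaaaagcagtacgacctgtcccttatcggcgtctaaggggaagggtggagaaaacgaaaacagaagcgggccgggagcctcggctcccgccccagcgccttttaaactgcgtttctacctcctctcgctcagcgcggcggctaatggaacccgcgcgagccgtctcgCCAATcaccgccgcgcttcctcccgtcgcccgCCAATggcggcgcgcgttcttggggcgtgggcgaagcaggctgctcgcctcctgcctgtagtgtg

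CCAAT occurred in windows of 6 of the 8 genes (LMNA, LMNB1, TMPO, EMD, HMGB1 and HMGA1). By window this was 9 of 15 (60%), some of which overlap, against 34.6% of all 35116 windows. A share by gene over all genes was not computed, and genes with several windows had more chances to hold the motif. The windows of LMNA and LMNB1 that are not shown held no CCAAT box. Counted from the gene start, its first base lay at -47 and -15 in the TMPO window shown, at -138 in LMNB1 and at -146 in LMNA. More than 1 CCAAT box also lay in a window of HMGB1 (-103, -59 and -28) and in that of EMD (-224 and -115). In HMGA1, 1 window held it at -146 and another after the start, at 38. An E2F site, searched as TTTCGCGC, TTTGGCGC, TTTCCCGC or TTTGCCGC, occurred in LMNA at -23 and in windows of no other of the 8 genes, and in 3.31% of all windows. The cell cycle homology region TTTGAA occurred in 2 of the 15 windows (13.3%), a share near that of all windows (15.2%). It lay at -246 in both, 1 of HMGB1 and 1 of LMNB2, near the far end of the window. The TATA box TATAAA occurred in 0 of the 15 (11.5%). In these windows the marked motifs did not overlap.

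The transcripts of LMNA did not keep the same proportions. ENST00000368300, known as the transcript of lamin A (the table names no isoforms), had 94.8 FPKM on day 0, then 71.1, 53.9 and 43.2. ENST00000368301, that of lamin C, had 59.2, then 25.3, 23.6 and 26.2. The lamin C transcript thus had most of its decrease by day 3, while that of lamin A was lower at each step. Relative to the lamin A transcript it stood at 0.625, 0.356, 0.438 and 0.605 in the 4 libraries. ENST00000504687, ENST00000368299 and ENST00000361308, which also carried at least 10% of the LMNA FPKM in any library, had 37.6%, 40.6% and 51.2% of their day 0 level on day 9. Transcripts of a gene share most of their sequence, and the split between them is the estimate of the authors' program.

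LBR, the lamin B receptor, which also acts as a sterol reductase, had 40.3, 23.5, 20.8 and 19.0 FPKM at the 4 time points. It was the least abundant of the 10 genes on days 3, 6 and 9. Its log2 ratio on day 9 was -1.04 and lay within the 2-fold limit (-0.92) after rescaling by the median of ratios. TMPO, which encodes the lamina-associated polypeptides 2 (LAP2), had 120.1, 86.8, 71.9 and 63.4 FPKM, with log2 ratios of -0.46, -0.73 and -0.91. EMD, which encodes emerin, had 53.9, 46.4, 45.0 and 43.2 FPKM. EMD stayed nearest to its day 0 level among the genes below it on day 9, with a log2 ratio of -0.31 at that time, and 35.7% of all genes had a lower one.

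Within TMPO, the transcripts took different courses, and the one with the most FPKM on day 0 lost the most FPKM. ENST00000556029, known to encode the membrane-bound LAP2 beta, had 59.9, 30.1, 25.1 and 21.1 FPKM over the time course. Its log2 ratio on day 9 was -1.46, past the 2-fold limit that the gene as a whole did not reach. ENST00000266732, known to encode the nucleoplasmic LAP2 alpha, had 35.3, 24.2, 19.6 and 18.7 FPKM. The alpha transcript relative to the beta transcript was 0.589 on day 0 and 0.806, 0.782 and 0.884 later. ENST00000343315 had 11.7, 13.1, 10.6 and 10.3 FPKM and ENST00000261210 had 7.60, 8.23, 7.91 and 5.87, both close to their day 0 level up to day 6. ENST00000556678, a minor transcript with at most 6.90% of the TMPO FPKM that is named here after its values were seen, rose from 1.54 FPKM to 5.98, 4.89 and 4.37, with log2 ratios of 1.46, 1.21 and 1.08.

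**Figure D3:**
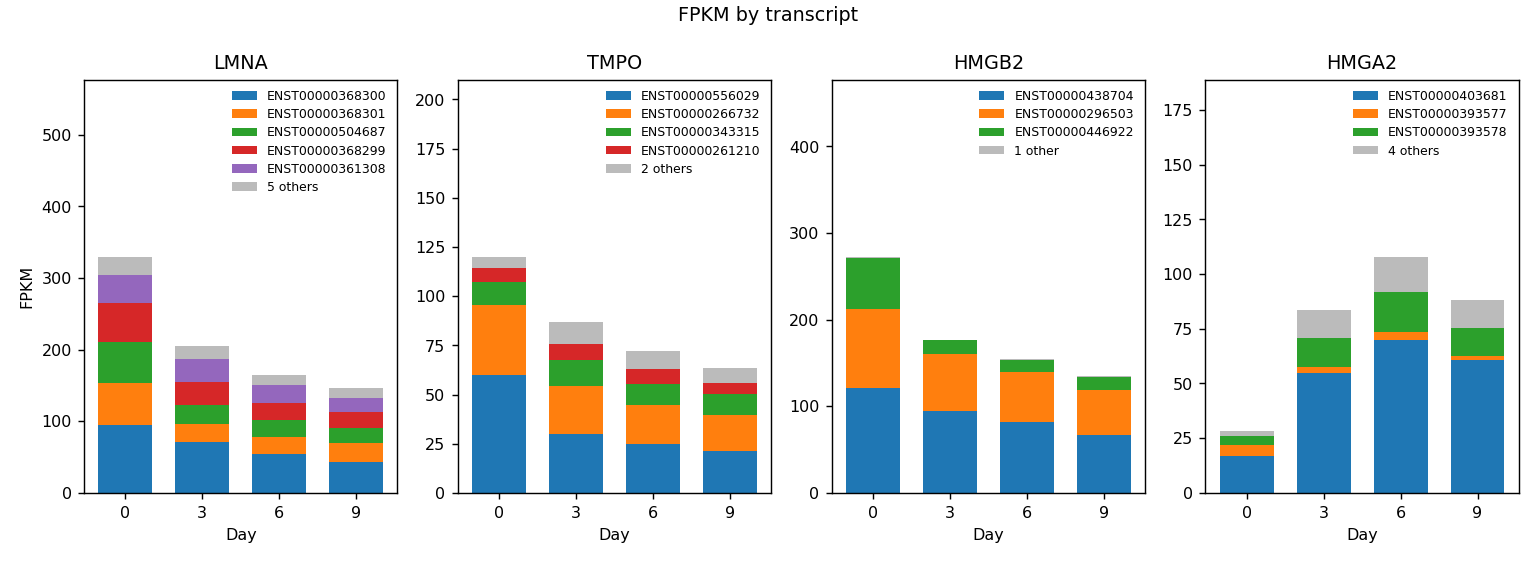
FPKM of each transcript of LMNA, TMPO, HMGB2 and HMGA2, stacked to the level of the gene, on days 0, 3, 6 and 9 with 1 library per bar. Transcripts with at least 10% of the gene's FPKM in any library have a colour and the others are grey. The TMPO transcript ENST00000556029 goes from 59.9 FPKM on day 0 to 21.1 on day 9, and the HMGA2 transcript ENST00000403681 from 16.8 to 60.7.

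HMGB1, a DNA-bending protein that also acts as an alarm signal when released, was the most abundant of the 10 genes up to day 6. Its 4 libraries held 655, 424, 363 and 349 FPKM, and its log2 ratios of -0.63, -0.85 and -0.91 did not pass the 2-fold limit. HMGB2, a close relative that is typical of dividing cells, had 273, 177, 155 and 135 FPKM. HMGB2 was just past the 2-fold limit on day 9 (-1.01) and within it (-0.88) after rescaling by the median of ratios. The FPKM of HMGB2 relative to HMGB1 was 0.416, 0.417, 0.427 and 0.386 from day 0 to day 9, so the later levels of both were lower in near proportion.

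The gene name table lists 48 named copies of HMGB1, 8 of HMGA1, 2 of TMPO and 1 of HMGB2, with which reads could have been shared. Of these copies, only HMGA1P4 has a row in the FPKM tables, as a lncRNA with 2.29, 1.76, 1.15 and 2.58 FPKM. HMGB1 levels are therefore uncertain to the extent that reads of copies were assigned to it.

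The HMGB2 transcripts had unequal courses. ENST00000446922 had 58.1 FPKM on day 0 and 16.3, 13.7 and 15.4 later, with a log2 ratio to day 0 of -1.77, -2.01 and -1.85. ENST00000438704 had 120.9, 95.0, 81.5 and 67.3 FPKM, and ENST00000296503 had 91.6, 64.8, 58.1 and 51.2, neither past the 2-fold limit. The share of ENST00000446922 in the FPKM of HMGB2 was 21.3% on day 0 and 9.22%, 8.85% and 11.4% later. The 3 HMGB1 transcripts with at least 10% of its FPKM kept their shares, with 51.3% on day 0 and 52.4% on day 9 for the leading ENST00000326004.

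HMGA2, an AT-hook protein of embryonic and transformed cells, was the only one of the 10 genes that rose 2-fold. Its level was 28.5 FPKM at day 0, followed by 83.7, 108 and 88.3. All 3 later libraries were above day 0, with day 6 the highest, and the level was 2.94, 3.79 and 3.10 times that of day 0. Its log2 ratio was 1.52, 1.89 and 1.60, and 96.5%, 97.6% and 96.0% of all genes had a lower one. On day 0 it was the least abundant of the 10 genes, and on days 6 and 9 it ranked number 5.

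Most of the rise was in ENST00000403681, the leading HMGA2 transcript, with 16.8 FPKM on day 0 and 54.8, 69.9 and 60.7 later. ENST00000393578 had 3.79, 13.0, 18.3 and 12.6 FPKM and thus followed the same course. ENST00000393577 went the other way, with 5.16 FPKM on day 0 and 2.73, 3.67 and 2.0 later, so that its share of the HMGA2 FPKM was 18.1% on day 0 and 2.27% on day 9. Among the 10452 genes searched, FAM20C, a kinase of secreted proteins with a part in biomineralization, had the course most like that of HMGA2. The root mean square difference of their log2 ratios was 0.0621, followed by KIAA0408 with 0.0742 and TEP1, a telomerase-associated protein, with 0.0975.

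HMGA1, the other AT-hook gene, was lower on day 3 and back at its day 0 level on day 9. The 4 libraries gave 377, 202, 311 and 381 FPKM. Its log2 ratio of -0.90 on day 3 was the lowest of the 10 genes on that day, and that of 0.02 on day 9 lay near the middle of all genes, 56.1% of which had a lower one. At the raised temperature HMGA1 was thus higher in each later library, with a log2 ratio of 0.62 from day 3 to day 6, above that of 98.0% of all genes, and 0.29 from day 6 to day 9. Its leading transcripts ENST00000311487 (242, 142, 212 and 255 FPKM) and ENST00000401473 (95.2, 42.3, 70.8 and 90.0 FPKM) both had this dip. The FPKM of HMGA2 relative to HMGA1 was 0.0755 before the temperature was raised and 0.414, 0.347 and 0.232 after it.

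The steps between days 3, 6 and 9 were smaller than the first one, for each of the 10 genes and, by their quartiles, for all genes. From day 3 to day 6, 0 of the 10 were 2-fold higher (0.607% of all genes) and 0 were 2-fold lower (0.443%). From day 6 to day 9, 0 were higher (0.381%) and 0 were lower (0.163%). With so few genes past the limit, a count of 0 says little about the 10 genes. Of the 10, 7 had a log2 ratio below 0 in the first of these steps and 9 of the 10 in the second, with medians of -0.18 and -0.17 against 0.00 and 0.01 over all genes. From day 3 to day 6, 9 of the 10, all but EMD, lay outside the middle 50% of all genes. Only LMNB2, HMGA1 and HMGA2 had a ratio above 0 in that step, and only HMGA1 from day 6 to day 9.

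Other genes of the nuclear envelope lay on both sides of their day 0 level. Of 17 genes for inner nuclear membrane proteins and for the LINC complex, which ties the nucleus to the cytoskeleton, 2 fell 2-fold by day 9 (6.52% of all genes), 0 rose (9.6%), and their median log2 ratio was -0.30 against -0.09 over all genes. SUN2, a LINC protein of the inner membrane, fell from 75.2 FPKM on day 0 to 25.2, 23.4 and 19.0 (log2 ratio -1.93 on day 9), whereas its paralog SUN1 had 83.4, 74.4, 71.8 and 62.4 FPKM. TMEM43, a membrane partner of emerin, had 29.5 FPKM on day 0 and 14.5, 12.9 and 12.6 later. SYNE2, which encodes the outer membrane protein nesprin-2, had 17.2 FPKM on day 0 and 39.6, 40.9 and 30.9 later, past the 2-fold limit on days 3 and 6 and within it on day 9 (0.80).

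Of 6 genes tied to lamin processing, 1 fell 2-fold on each later day (3.45% of all genes). This was ZMPSTE24, the protease that cleaves prelamin A to mature lamin A, with 43.6 FPKM on day 0 and 14.2, 15.0 and 16.5 later. FNTA and FNTB, the subunits of the farnesyltransferase that modifies lamins, had day 9 log2 ratios of 0.09 and 0.17. FNTB was higher before that, with 8.33 FPKM on day 0 and 14.2 and 11.3 on days 3 and 6 (0.70 and 0.40). ICMT, the methyltransferase that acts after farnesylation, had 35.5 FPKM on day 0 and 49.1 on day 9 (0.46), and RCE1, a second CAAX protease, had -0.43.

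Among 15 other genes for HMG-box and HMGN proteins, 3 fell 2-fold by day 9 (6.52% of all genes) and 0 rose (9.6%). A log2 ratio below 0 was found for 12 of the 15 (55.1% of all genes), with a median of -0.52 against -0.09 over all genes. HMGB3, the third HMGB gene, had 73.7 FPKM on day 0 and 19.9, 15.9 and 16.4 later, a larger decrease (-2.11 on day 9) than that of HMGB1 or HMGB2. HMGN2, a nucleosome-binding protein, had 772 FPKM on day 0 and 344, 295 and 277 later (-1.47). HMGN5, from the same family, had 3.04 FPKM on day 0 and 0.593, 1.09 and 0.443 later (-1.49). These levels lie near the 1 FPKM that was added, so its ratio depends on that choice, and on day 6 HMGN5 was within the limit (-0.95). HMGN1 had 235, 183, 170 and 164 FPKM (-0.52), within the limit. HMGN genes also have many processed copies, between which reads could be split.

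Of 9 genes for heterochromatin proteins, 1 fell 2-fold by day 9, a share near that of all genes (6.52%). This was SUV39H1, a histone H3 lysine methyltransferase, with 10.2, 5.02, 3.93 and 3.60 FPKM (-1.28). EHMT2, another such enzyme, had 9.74, 17.1, 16.2 and 15.9 FPKM (0.66). The genes for heterochromatin protein 1, CBX1, CBX3 and CBX5, had log2 ratios of -0.37, -0.52 and 0.09 on day 9.

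Several genes of division and arrest moved by larger amounts in the same libraries. Of 12 genes of proliferation, 6 fell 2-fold by day 9 (6.52% of all genes) and 0 rose (9.6%), with PLK1 at 130.0 FPKM on day 0 and 8.03 on day 9, CCNB1 at 225 and 32.5, CCNA2 at 102 and 36.9, TOP2A at 207 and 88.0, MKI67 at 116 and 53.6 and FOXM1 at 94.8 and 46.2. Rescaled by the median of ratios, 4 were lower, with MKI67 (-0.98) and FOXM1 (-0.90) within the limit. PCNA, RRM2 and TYMS of DNA synthesis had log2 ratios of 0.90, 0.83 and 0.77. Rescaled by the median of ratios, PCNA was past the 2-fold limit (1.02). Of 12 genes of arrest and senescence, 5 rose (9.6% of all genes) and 2 fell (6.52%). GDF15, a secreted stress protein, had 11.4 and 767 FPKM on days 0 and 9, and CDKN1A, which encodes the CDK inhibitor p21, had 74.7 and 1283. IGFBP7 had 385 and 998 FPKM and the p53 regulator MDM2 154 and 359. The CDK inhibitor genes CDKN2C and CDKN1B fell, with log2 ratios of -2.15 and -1.03 (CDKN1B within the limit after rescaling), while CDKN2A had 195 and 186 FPKM. The part of these changes in the course of the lamina and HMG genes was not tested.

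**Figure D4:**
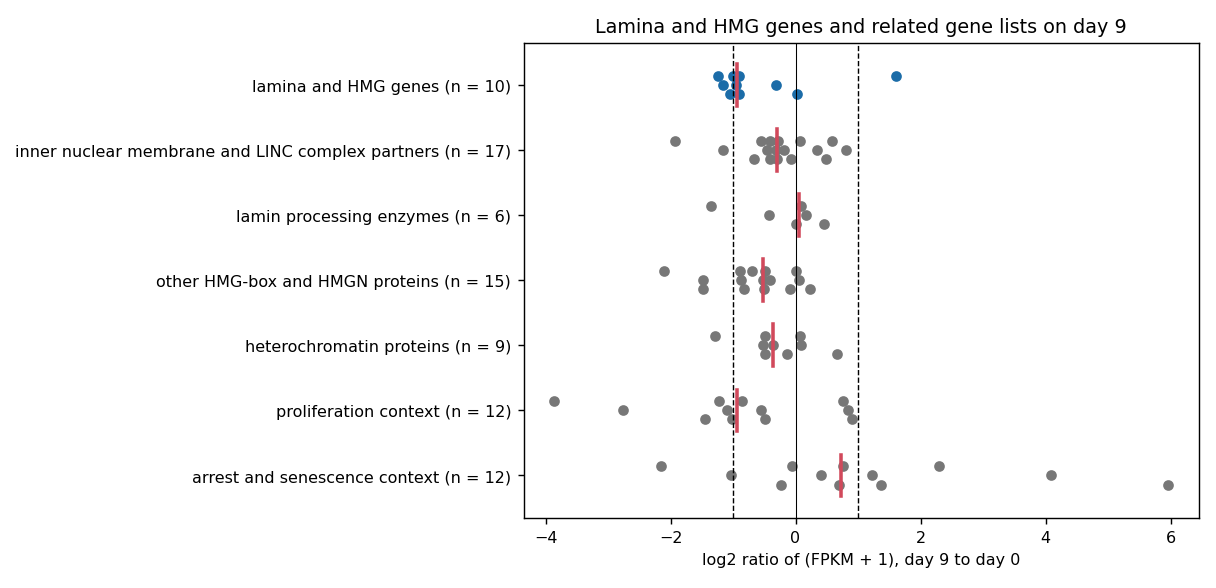
Log2 ratio of (FPKM + 1) of day 9 to day 0 for the 10 lamina and HMG genes (blue) and for the genes of 6 related lists (grey), 1 point per gene, with the median of each list (red line) and dashed lines at 2-fold. The median is -0.93 for the lamina and HMG genes, -0.94 for the proliferation genes and 0.73 for the arrest and senescence genes.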

How the data were processed

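Total RNA of 4 hFOB1.19 samples, 1 per time point, was sequenced. Columns were assigned to days by the sample titles. The authors removed ribosomal RNA, made directional libraries and aligned reads with Bowtie and TopHat. RNase R, which digests linear RNA, is named for the mRNA libraries, and its effect on the FPKM was not tested. The authors deposited FPKM per transcript. The program behind the FPKM is not given in the sources used here. The submitters' processing notes name Bowtie 0.12.2 and the mouse build mm8, whereas transcript IDs are human. FPKM hold no read counts, so the depth per gene is unknown, and no interval or floor is given.

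FPKM were summed per symbol, of which 17 of 19610 cover more than 1 gene ID (none of the 10 genes), and 1 was added before log2. The minimum was 1 FPKM in any library and the limit 2-fold. The genes and the 6 related lists were chosen with earlier results of these data known. All 10 genes are named, with transcripts of at least 10% of a gene's FPKM, the 3 genes closest to LMNA and to each gene past 2-fold on all later days (HMGA2), and the listed genes past 2-fold or with the 3 largest changes on day 9. Others are added for context after their values were seen. The values of 1 listed gene are not reported here. The 2-fold rule was tested on simulated data with planted changes far larger than 2-fold. That test cannot tell how the rule does for genes near the limit. Alternatives covered the pseudocount, minimum, limit, scaling and leading transcript. The authors' 9 comparison tables (fold changes, p-values) and 26 per-sample columns of these and of the circRNA table were not used. Python 3.11.15, numpy 2.4.6, pandas 2.3.3 and matplotlib 3.10.9 were used.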

Additional observations from a re-analysis of the deposited data

How the results depend on the processing

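No paired analysis was possible because a day is represented by 1 sample only. Rescalings with the 1.5-fold limit and for the related lists were chosen after the data were seen. Of 240 log2 ratios of the 10 genes under alternatives, 231 kept their side of the 2-fold limit and 0 turned over. The 240 include ratios under other minimum FPKM, which select genes and leave each ratio unchanged, so these could not move. Transcript shares were recomputed without transcripts below 0.1 FPKM in every library. Among the 10 genes this left out only transcripts listed at 0 throughout, so no share could shift. Where no construction shows it, the cause was not tested. FPKM without counts limit the precision, most for transcripts of few FPKM.

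On day 9, the number of the 10 genes 2-fold lower was 2 with each rescaling. LBR then had -0.92 (median of ratios), -0.95 (equal sums) and -0.94 (upper quartile), and HMGB2 -0.88, -0.89 and -0.91. The number 1.5-fold lower on day 3 was then 3, 2 and 3. From the leading transcript alone, TMPO had -1.23 on day 6 and -1.46 on day 9, HMGB2 had -0.84 on day 9, and 1 gene was lower on day 6. With a limit of 1.5-fold, 7 of the 10 were lower on each day, not the same genes on day 3 as later. With that limit, 1 was higher on day 6 than on day 3. With a limit of 4-fold, 0 were higher on any day and 0 lower on day 9.

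Of all genes, 1636 were higher on day 3 with equal sums. With a 1.5-fold limit, days 3, 6 and 9 had 2234, 2309 and 2330 higher genes and 2380, 2586 and 2629 lower genes. With 4-fold, these were 214, 259 and 301 higher and 99, 119 and 133 lower genes. Of the proliferation genes, 1 was higher on day 9 by median of ratios and with equal sums, namely PCNA (1.02 and 1.01). With the upper quartile, 5 of them were lower, with MKI67 (-1.003) just past the limit. Of the genes of arrest, 1 instead of 2 was lower with each rescaling.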
